A study of Homo sapiens with 4 samples.

Results

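BNIP3 and 9 regulators of the BCL2 family were followed through a hypoxia-mimicking treatment and Sp1 knockdown in OVSAYO, a cell line grown from a human ovarian tumour of the clear cell type (CCC). The genes were BNIP3, BNIP3L, MCL1, BCL2, BCL2L1, BCL2L11, BBC3, PMAIP1, BIK and BAX. A probe was taken as a member when the RefSeq transcript given for its spots maps to 1 of these symbols. This gave 21 probes on 57 spots for the 10 genes, of 40992 probes analysed, of which 26216 had a symbol and covered 17718 genes. BNIP3, BCL2, PMAIP1 and BIK had 1 probe each, BNIP3L and BCL2L1 had 2, MCL1, BBC3 and BAX had 3, and BCL2L11 had 4. Every member probe was well above background on all 4 arrays, as were 30234 of the 40992 probes analysed. No spot was saturated, of the members or of any other probe.

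The RNA of each condition was labelled with 1 dye and read on 1 Agilent array of the human genome, and the 4 arrays shared 1 slide. NS-si cells were transfected with a non-specific negative control siRNA and Sp1-si cells with a pool of siRNAs against Sp1, a zinc finger transcription factor that binds GC-rich promoters. After 40 h of culture according to the labels (the legend of the study gives a shorter time), the medium was replaced and cells of both kinds were exposed for 4 h to 0.5 mM CoCl2, a salt that stabilises hypoxia-inducible factors (HIFs) in normal oxygen, as NS-si → CoCl2 and Sp1-si → CoCl2 cells, or were not. All cells were of 1 line and had been transfected, so untransfected cells were not a condition.

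Since no condition was repeated, nothing was tested, and the precision is limited by having a single array for each. Values are scaled signals, which are background-subtracted fluorescence intensities after each array was divided by its own 75th percentile and set to a common level. Ratios are on the log2 scale, so that 1 is a 2-fold difference, and a probe was counted as raised or lowered past 2-fold when it was well above background on both arrays. The error given as ± is the SD expected between single spots of 1 array, combined over the arrays of a ratio. It was measured on probes with 10 spots, and differences between arrays were judged against 2 of these SDs (2 spot SDs). For a probe with 10 spots it is the SD of its spots and not the error of their mean. It covers neither differences between arrays from labelling and hybridisation nor the spread between cultures. Leaving out the scaling adds 1 amount to the log2 ratio of every probe, which is -0.226 for CoCl2 in NS-si cells, 0.227 for CoCl2 in Sp1-si cells, -0.055 for Sp1 knockdown without CoCl2 and 0.398 for knockdown with it, and therefore 0.453 for the difference between the CoCl2 ratios.

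The 75th percentile of the deposited signals lay between 977 and 1288, and 76.3% to 79.6% of 43376 spots were well above background. The Sp1 knockdown was seen in the SP1 probes, of which A_23_P366312 read 543 (NS-si), 39.9 (Sp1-si), 492 (NS-si → CoCl2) and 33.7 (Sp1-si → CoCl2). All 9 CCC and epithelial markers examined were well above background, whereas WT1, a marker of serous carcinoma, PTPRC of leukocytes and PECAM1 of endothelium were not. ESR1 (48.6 to 54.8) and PGR (26.2 to 42.4), the hormone receptors of other ovarian carcinomas, and DCN of fibroblasts (15.8 to 28.9) were dim but also well above background. In Sp1-si cells the CCC marker NAPSA was lower (-2.33), the epithelial marker CDH1 was lower (-1.55) and GPX3 was higher (2.38), and the part of these shifts in the results below was not tested.

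Proteins of the BCL2 family decide whether the outer mitochondrial membrane stays closed. BCL2, BCL-xL (from BCL2L1) and MCL1 hold the pore-forming proteins BAX and BAK in check, and the BH3-only proteins BIM (from BCL2L11), PUMA (BBC3), NOXA (PMAIP1) and BIK bind to and neutralise these guardians, some of them also activating BAX directly. BNIP3 and BNIP3L (also called NIX) are relatives with a BH3-like segment that sit in the outer membrane and tether damaged mitochondria to autophagosomes, a process called mitophagy, and BNIP3 is a long-known HIF target in hypoxic tumour cells.

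BNIP3 was the member that CoCl2 raised the most in Sp1-si cells. Its probe A_23_P138635 read 6503 (NS-si), 6025 (Sp1-si), 21482 (NS-si → CoCl2) and 27978 (Sp1-si → CoCl2). Both arrays of CoCl2-treated cells were far above both arrays of untreated cells, and the latter differed by less than 2 spot SDs. CoCl2 raised the signal 3.30-fold in NS-si cells (log2 ratio 1.72 ± 0.06) and 4.64-fold in Sp1-si cells (2.21 ± 0.07). Of all probes, 99.0% had a lower ratio with NS-si and 99.6% with Sp1-si. Under CoCl2 the Sp1-si array stood 1.30-fold above the NS-si array (0.38 ± 0.06), so that the difference between the CoCl2 ratios was 0.49 ± 0.09, or 0.94 without scaling, both under 2-fold. In bulk RNA, fewer cells of a kind and less RNA per cell cannot be told apart, and this holds for every ratio given here.

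The bases upstream of BNIP3 are shown with those of PMAIP1, BCL2L11 and BAX, because HIFs recognise a short core motif and Sp1 a GC box, and these members differed in their response to CoCl2. Each sequence is the 250 bases before the RefSeq gene start in build GRCh38.p14, read 5′ to 3′ on the strand of the gene. Capitals mark the HIF core (ACGTG or GCGTG, or CACGT or CACGC on the other strand) and the GC box (GGGCGG, or CCGCCC on the other strand). BNIP3 lies at chr10:131981924-131982173 on the minus strand, PMAIP1 at chr18:59899746-59899995 on the plus strand, BCL2L11 at chr2:111120664-111120913 on the plus strand and BAX at chr19:48954625-48954874 on the plus strand.
BNIP3: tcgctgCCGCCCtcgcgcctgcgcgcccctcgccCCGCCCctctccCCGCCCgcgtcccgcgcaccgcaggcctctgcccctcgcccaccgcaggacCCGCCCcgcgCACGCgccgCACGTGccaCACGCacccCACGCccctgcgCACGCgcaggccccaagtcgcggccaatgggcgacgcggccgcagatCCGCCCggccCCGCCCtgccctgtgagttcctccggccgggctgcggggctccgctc
PMAIP1: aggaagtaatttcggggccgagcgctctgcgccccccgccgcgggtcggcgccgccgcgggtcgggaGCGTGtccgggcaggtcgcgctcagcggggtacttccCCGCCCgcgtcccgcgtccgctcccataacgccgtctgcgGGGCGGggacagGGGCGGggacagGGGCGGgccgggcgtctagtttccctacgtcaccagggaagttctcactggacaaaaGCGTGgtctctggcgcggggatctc
BCL2L11: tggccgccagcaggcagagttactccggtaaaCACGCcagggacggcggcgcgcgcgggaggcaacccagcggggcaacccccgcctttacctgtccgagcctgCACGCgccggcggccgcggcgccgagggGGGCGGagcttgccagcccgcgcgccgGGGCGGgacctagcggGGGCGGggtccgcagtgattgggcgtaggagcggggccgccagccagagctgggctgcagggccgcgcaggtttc
BAX: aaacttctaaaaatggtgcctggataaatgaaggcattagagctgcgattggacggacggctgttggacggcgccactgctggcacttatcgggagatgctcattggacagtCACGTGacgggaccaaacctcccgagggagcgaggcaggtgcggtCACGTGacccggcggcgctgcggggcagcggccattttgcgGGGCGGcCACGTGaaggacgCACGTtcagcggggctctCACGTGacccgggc

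The BNIP3 sequence held 6 matches to the HIF core, of which 1 pair overlapped as CACGTG, starting between positions -143 and -104 relative to the gene start, and 6 matches to the GC box. A HIF core occurred in 43.1% and a GC box in 42.6% of 34788 such sequences of all genes, while 6 or more HIF cores occurred in 0.6% and 6 or more GC boxes in 2.2%. These sequences are rich in G and C, which make up 81.6% of the BNIP3 bases. PMAIP1 held 2 HIF cores and 4 GC boxes, and BCL2L11 held 2 HIF cores and 3 GC boxes. BAX held 9 HIF core matches, 4 pairs of them overlapping as CACGTG, and 1 GC box, and its 3 probes had CoCl2 ratios in NS-si cells of -0.26, 0.42 and -0.02. Of the other members, BBC3 held 2 HIF cores as 1 overlapping pair and no GC box, BCL2L1 held 1 HIF core and no GC box at 1 of its 2 gene starts and neither at the other, and BCL2 held neither. A match is a description of the letters and was not tested as a binding site. Member sequences on 1 chromosome were left out, and those used covered 7 of the 10 genes, without MCL1, BIK and BNIP3L.

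BNIP3L, the second mitophagy receptor, was also higher with CoCl2 by both of its probes. Probe A_23_P408708 read 1110 (NS-si), 1619 (Sp1-si), 3963 (NS-si → CoCl2) and 4380 (Sp1-si → CoCl2). Probe A_23_P134925 read 1022, 1452, 3091 and 5266 in the same order. Both probes gave the same order of the 4 arrays, and every step exceeded 2 spot SDs. CoCl2 raised BNIP3L 3.57-fold and 3.02-fold with NS-si and 2.71-fold and 3.63-fold with Sp1-si by the 2 probes. Sp1-si cells were higher than NS-si cells without CoCl2 by 0.55 ± 0.08 and 0.51 ± 0.08. The probes disagreed on whether the CoCl2 ratio was smaller or larger after Sp1 knockdown, with differences of -0.40 ± 0.10 and 0.26 ± 0.10, and the first of these became 0.05 when the arrays were not scaled.

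**Figure D1:**
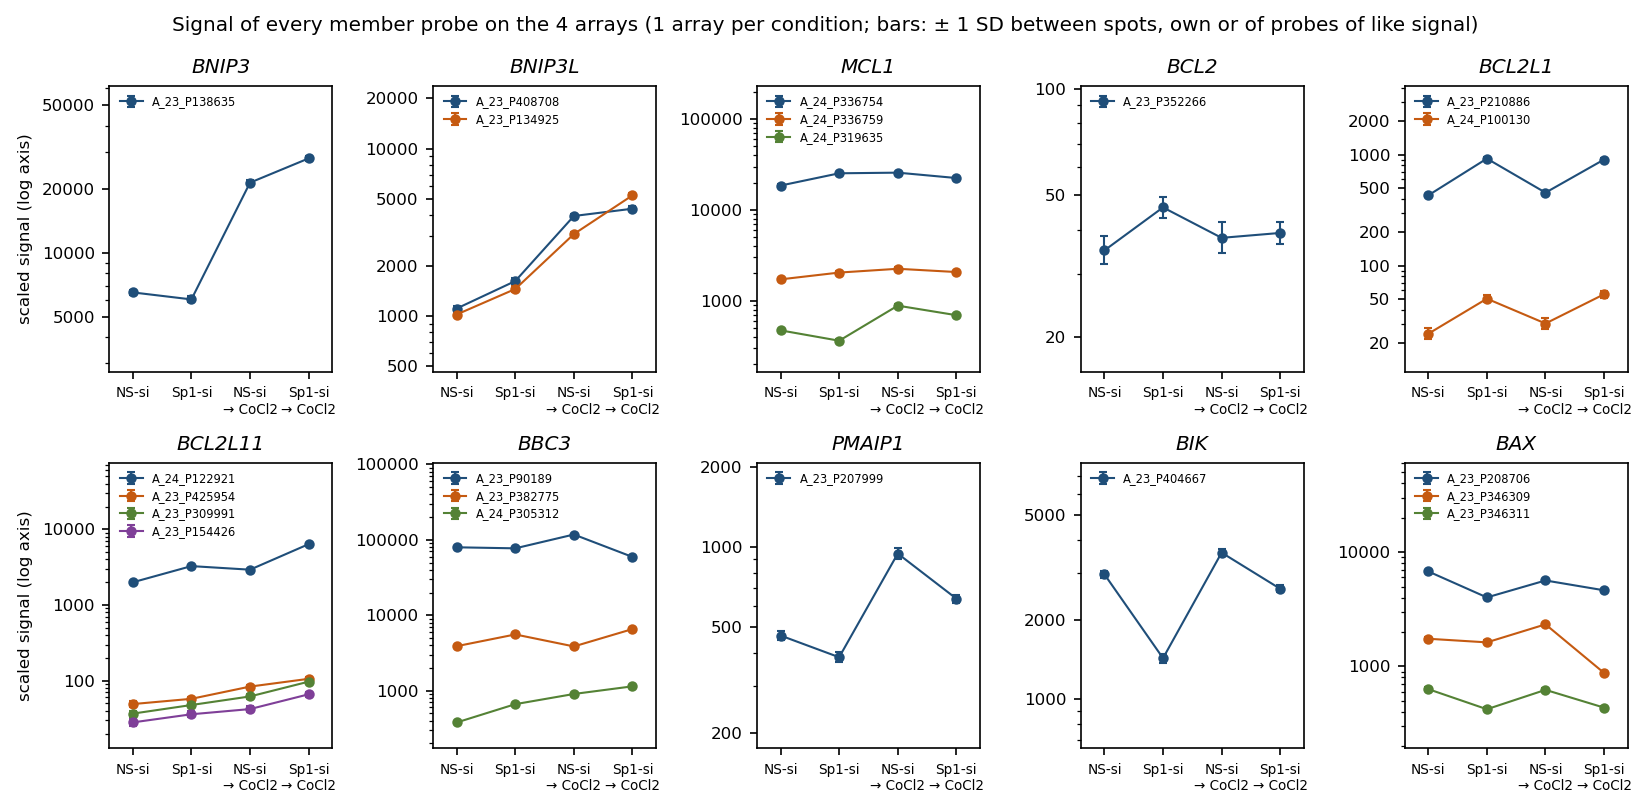
Scaled signal (log axis) of each of the 21 member probes, identified in each panel, on the 4 arrays. Each point is 1 array, bars are ± 1 SD between spots and lines join the arrays of a probe. BNIP3 lies at 6503 and 6025 without CoCl2 and at 21482 and 27978 with it, whereas BCL2L1 is separated by the siRNA and BCL2 stays between 35.0 and 46.3.

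Among the anti-apoptotic members, BCL2L1 stood higher in both conditions with Sp1-si, and its CoCl2 ratios were small. Probe A_23_P210886, which is annotated to the long, protective form and has 10 spots, read 430 (NS-si), 920 (Sp1-si), 454 (NS-si → CoCl2) and 903 (Sp1-si → CoCl2). The individual spots ran from 415 to 453 on the NS-si array and from 879 to 972 on the Sp1-si array, without overlap. Sp1-si cells were 2.14-fold higher without CoCl2 (1.10 ± 0.07) and 1.99-fold higher with it (0.99 ± 0.07). The CoCl2 ratios of 0.08 ± 0.07 with NS-si and -0.03 ± 0.08 with Sp1-si stayed under 2 spot SDs. The second probe, A_24_P100130, is annotated to the short, death-promoting form and was dim, at 24.4, 50.5, 30.2 and 55.4 in the same order. It gave siRNA ratios, Sp1-si over NS-si, of 1.05 ± 0.19 without CoCl2 and 0.87 ± 0.18 with CoCl2. Whether each probe binds 1 form alone was not tested. With the normexp background correction the ratios without CoCl2 were 0.997 and 0.455 for the 2 probes, both under 2-fold.

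MCL1, a short-lived guardian that is quickly replaced by new synthesis, gave a different account by each of its 3 probes. Probe A_24_P336754 read 18553 (NS-si), 25329 (Sp1-si), 25744 (NS-si → CoCl2) and 22460 (Sp1-si → CoCl2). Probe A_24_P336759 read 1720, 2043, 2250 and 2071, and probe A_24_P319635 read 472, 363, 883 and 693. The NS-si → CoCl2 array was the highest of the 4 by every probe, while the lowest was NS-si by 2 probes and Sp1-si by the other. By the first 2 probes the highest array stood less than 2 spot SDs above the next. Without scaling, the Sp1-si → CoCl2 array was instead the highest by every probe. CoCl2 ratios in NS-si cells were 0.47 ± 0.06, 0.39 ± 0.07 and 0.90 ± 0.07, beyond 2 spot SDs and under 2-fold. In Sp1-si cells they were -0.17 ± 0.06, 0.02 ± 0.07 and 0.93 ± 0.08. The difference between the CoCl2 ratios was -0.65 ± 0.09 by the first probe, -0.37 ± 0.10 by the second and 0.03 ± 0.11 by the third. By the first 2 probes the CoCl2 ratio was thus smaller after knockdown, though for the second the difference became 0.085 without scaling, and by the third it differed by less than 2 spot SDs. Also without scaling, the CoCl2 ratio of the first probe in Sp1-si cells turned to 0.05.

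BCL2, the founding member of the family, was dim and differed little. Its probe A_23_P352266, with 10 spots, read 35.0 (NS-si), 46.3 (Sp1-si), 38.0 (NS-si → CoCl2) and 39.2 (Sp1-si → CoCl2). Ordered by level, no array differed from its neighbour by 2 spot SDs. The largest ratio, 0.40 ± 0.16 for Sp1-si to NS-si cells without CoCl2, did exceed them, and 1 spot of the Sp1-si array had been left out as an outlier. The CoCl2 ratios were 0.12 ± 0.20 and -0.24 ± 0.14.

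Among the BH3-only members, BCL2L11, which encodes the BAX activator BIM, was highest on the Sp1-si → CoCl2 array and lowest on the NS-si array by all 4 probes. The brightest, A_24_P122921, read 1993 (NS-si), 3262 (Sp1-si), 2925 (NS-si → CoCl2) and 6360 (Sp1-si → CoCl2). The other 3, A_23_P425954, A_23_P309991 and A_23_P154426, were dim, between 28.0 and 106 on all arrays, with A_23_P309991 at 36.6, 47.6, 61.8 and 96.9 in the same order. From the lowest to the highest array the signal differed 3.19-fold by the brightest probe and 2.16-fold, 2.65-fold and 2.35-fold by the others. CoCl2 ratios of the 4 probes ran from 0.55 to 0.77 with NS-si and from 0.88 to 1.02 with Sp1-si. The CoCl2 ratios differed by more than 2 spot SDs between the siRNAs with the brightest probe alone (0.41 ± 0.10). This depended on the processing of the other 3 probes. Their differences were 0.56, 0.72 and 0.74 without scaling, each beyond 2 spot SDs, and -0.083, -0.036 and -0.005 with normexp. The siRNA ratios, Sp1-si over NS-si, were 0.23 to 0.71 without CoCl2 and 0.34 to 1.12 with it. All 4 probes are annotated to the same transcript.

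PMAIP1, which encodes the MCL1 antagonist NOXA, was higher with CoCl2 and lower after Sp1 knockdown. Its probe A_23_P207999, with 10 spots, read 465 (NS-si), 385 (Sp1-si), 945 (NS-si → CoCl2) and 640 (Sp1-si → CoCl2). In the scaled signals the steps between the 4 arrays all exceeded 2 spot SDs, and the spots of no pair of arrays overlapped. The CoCl2 ratio was 1.02 ± 0.09 with NS-si and 0.73 ± 0.08 with Sp1-si, with a difference of -0.29 ± 0.12 that became 0.16 without scaling. The first value lay at the edge of 2-fold and fell under it in 4 of 7 other ways of processing, down to 0.80. The siRNA ratios were -0.27 ± 0.08 without CoCl2 and -0.56 ± 0.08 with it. Without scaling, the ratio with CoCl2 was -0.165, just under 2 spot SDs, so the separation of the 2 CoCl2 arrays rests on the scaling.

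**Figure D2:**
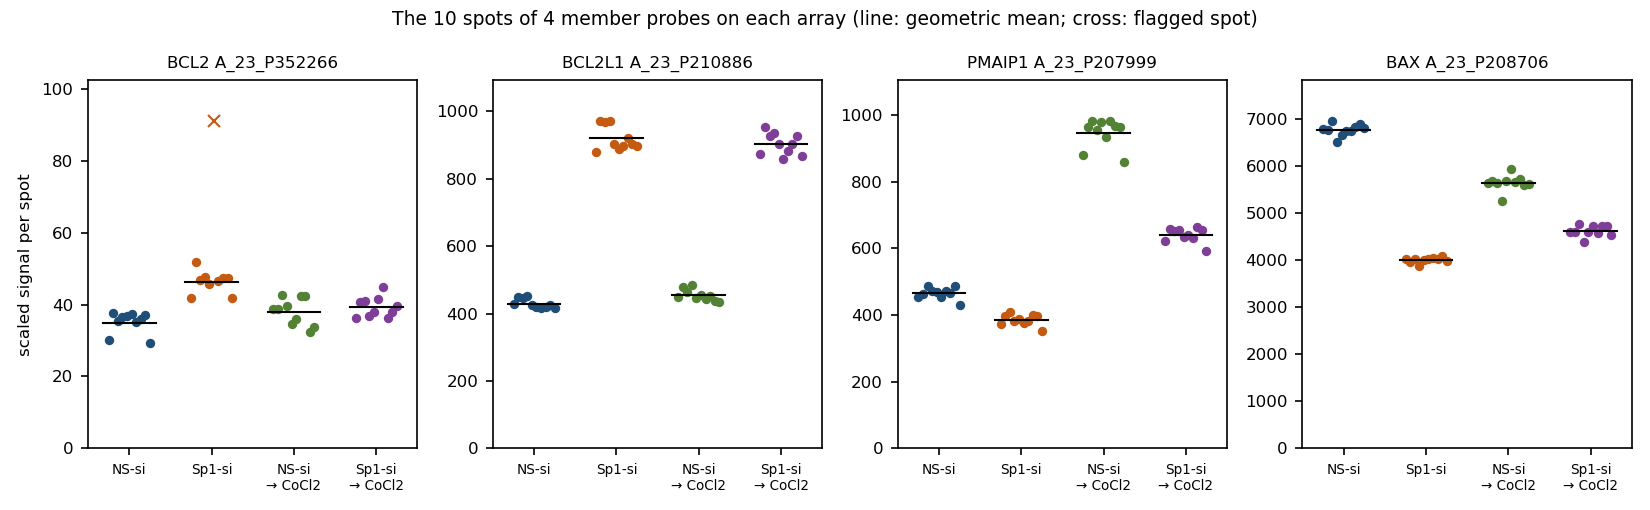
Scaled signals of the 10 individual spots of the BCL2, BCL2L1, PMAIP1 and BAX probes that carry 10 spots, on each of the 4 arrays. Points are spots, lines are geometric means and the cross is a spot flagged as an outlier and left out; the spots of PMAIP1 form 4 separate groups around 465, 385, 945 and 640, while those of BCL2 overlap between every pair of arrays but NS-si and Sp1-si.

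BBC3, which encodes the BH3-only protein PUMA, was not measured alike by its 3 probes, although all are annotated to 1 transcript. Probe A_23_P90189 read 79522 (NS-si), 77041 (Sp1-si), 117517 (NS-si → CoCl2) and 59242 (Sp1-si → CoCl2). Probe A_23_P382775 read 3889, 5565, 3860 and 6558, and probe A_24_P305312 read 379, 663, 905 and 1143. The Sp1-si → CoCl2 array was thus the lowest of the 4 by the first probe and the highest by the other 2. CoCl2 ratios were 0.56 ± 0.06, -0.01 ± 0.06 and 1.25 ± 0.08 with NS-si and -0.38 ± 0.06, 0.24 ± 0.07 and 0.79 ± 0.08 with Sp1-si. Only probe A_24_P305312 passed 2-fold, by 2.39-fold in NS-si cells. The siRNA ratios without CoCl2 were -0.05 ± 0.06, 0.52 ± 0.06 and 0.81 ± 0.08. The siRNA ratio under CoCl2 was -0.99 ± 0.06 by the first probe, against 0.77 ± 0.07 and 0.34 ± 0.07. No single direction can be given for BBC3.

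BIK, a BH3-only protein of the endoplasmic reticulum, was the one member that Sp1 knockdown lowered past 2-fold in untreated cells. Its probe A_23_P404667 read 2971 (NS-si), 1426 (Sp1-si), 3591 (NS-si → CoCl2) and 2617 (Sp1-si → CoCl2). The Sp1-si array stood apart below the other 3, and in the scaled signals each step passed 2 spot SDs. The Sp1-si level was 2.08-fold below that of NS-si cells without CoCl2 (-1.06 ± 0.07) and 1.37-fold below it with CoCl2 (-0.46 ± 0.07). The value with CoCl2 was -0.06 without scaling, under 2 spot SDs. CoCl2 ratios were 0.27 ± 0.07 with NS-si and 0.88 ± 0.07 with Sp1-si, a difference of 0.60 ± 0.10, and without scaling the second ratio and the difference passed 2-fold, at 1.10 and 1.05.

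BAX, the pore-forming member, was lower after Sp1 knockdown without CoCl2 by all 3 probes, and the probes differed under CoCl2. Probe A_23_P208706, with 10 spots, read 6779 (NS-si), 4012 (Sp1-si), 5649 (NS-si → CoCl2) and 4631 (Sp1-si → CoCl2). Probe A_23_P346309 read 1743, 1621, 2331 and 874, and probe A_23_P346311 read 631, 421, 622 and 434. Probes A_23_P208706 and A_23_P346311, annotated to the same transcript, placed both NS-si arrays above both Sp1-si arrays. The second, annotated to another splice form, was lowest in Sp1-si → CoCl2 cells and highest in NS-si → CoCl2 cells. The siRNA ratios without CoCl2 were -0.76 ± 0.03, -0.10 ± 0.07 and -0.58 ± 0.08, of which the second stayed under 2 spot SDs. With CoCl2 they were -0.29 ± 0.06, -1.42 ± 0.07 and -0.52 ± 0.08, and the first became 0.11 without scaling of the arrays. The second probe thus had the smallest siRNA ratio of the 3 without CoCl2 and the largest with it. By the second probe, CoCl2 ratios were 0.42 ± 0.07 with NS-si and -0.89 ± 0.08 with Sp1-si, a difference of -1.31 ± 0.10 that was -0.86, and so under 2-fold, without scaling. By the first probe they were -0.26 ± 0.05 and 0.21 ± 0.04, a difference of 0.47 ± 0.07 in the other direction, and by the third both stayed under 2 spot SDs.

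**Figure D3:**
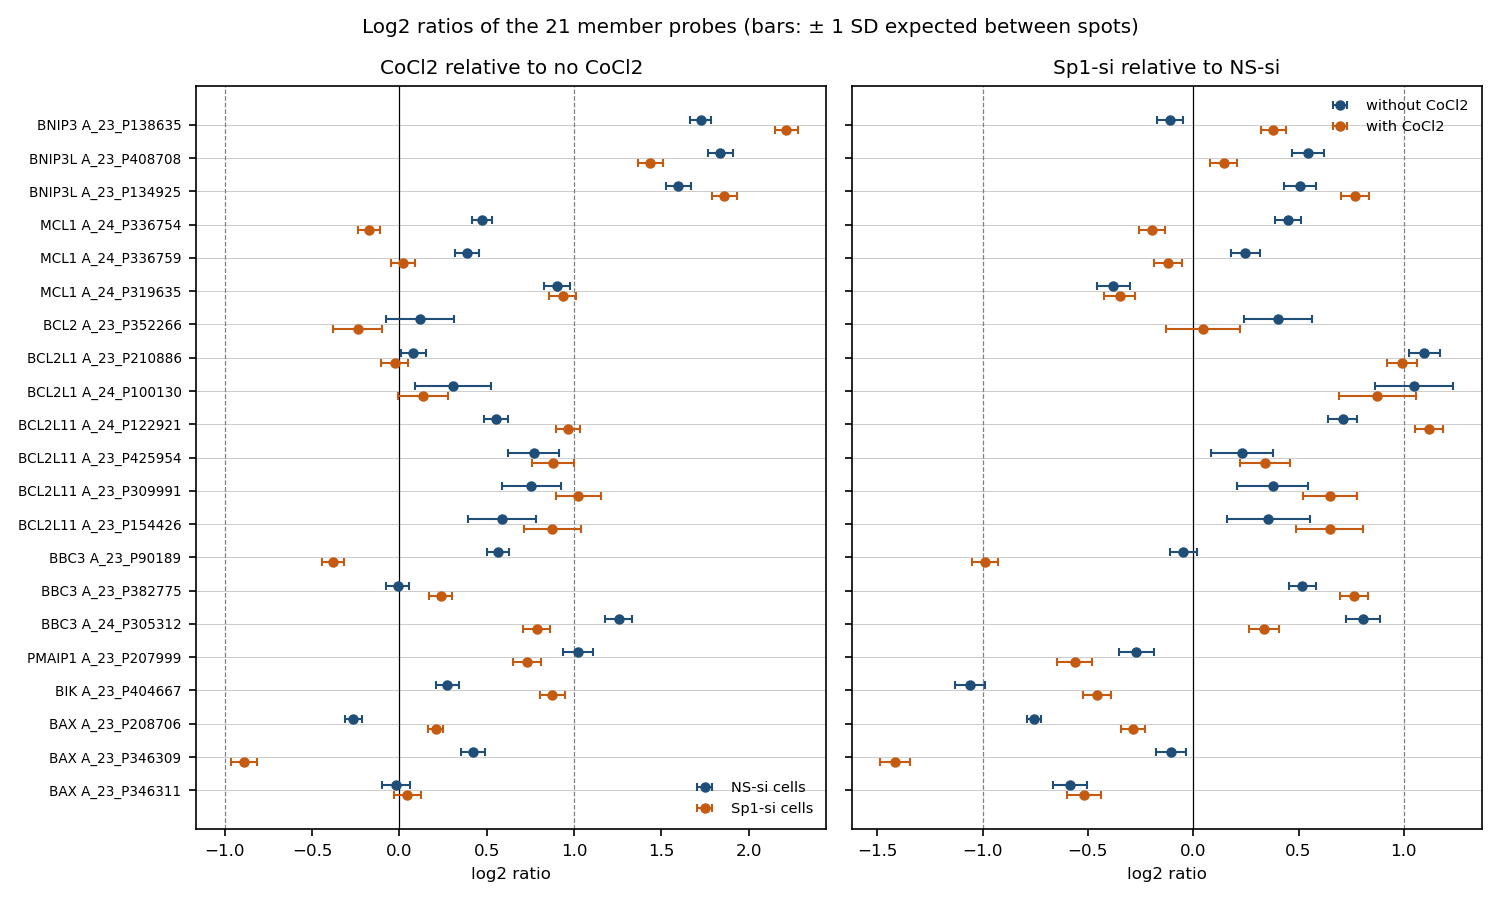
Log2 ratios of the 21 member probes for CoCl2 against no CoCl2 (left) and for Sp1-si against NS-si cells (right). Points are probes, bars are ± 1 SD expected between spots and dashed lines mark 2-fold. BNIP3 and both BNIP3L probes lie beyond 1 in both colours on the left, while both BCL2L1 probes lie at 1.05 and 1.10 without CoCl2 on the right.

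CoCl2 in NS-si cells asks which members answer the hypoxia mimic when Sp1 is present. BNIP3, BNIP3L by both probes, PMAIP1 and BBC3 by 1 of 3 probes passed 2-fold upwards, which are 5 of 21 member probes (23.8%) beside 4.06% of all probes. None of 21 passed 2-fold downwards, beside 3.82% of all probes. The median ratio was 0.55 over the member probes, 0.51 over the members each by its brightest probe and 0.02 over all probes. Of the 21 ratios, 16 exceeded 2 spot SDs, as did 60.4% of all probes. Without scaling of the arrays, the shares of all probes were 2.47% upwards and 6.55% downwards.

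The same question in Sp1-si cells gave 4 of 21 member probes (19.0%) past 2-fold upwards, beside 3.44% of all probes. These were BNIP3, both BNIP3L probes and BCL2L11 by 1 of 4 probes, which lay at 1.02 ± 0.13 and under 2-fold by 2 of 7 other ways of processing. None passed 2-fold downwards, beside 5.79% of all probes. The median ratio was 0.73 over the member probes, 0.47 over the members each by its brightest probe and -0.02 over all probes. Of 21 ratios, 16 exceeded 2 spot SDs, as did 63.6% of all probes. The shares of all probes were 4.44% upwards and 4.57% downwards with scaling by the median, and 6.1% and 3.4% without scaling.

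**Figure D4:**
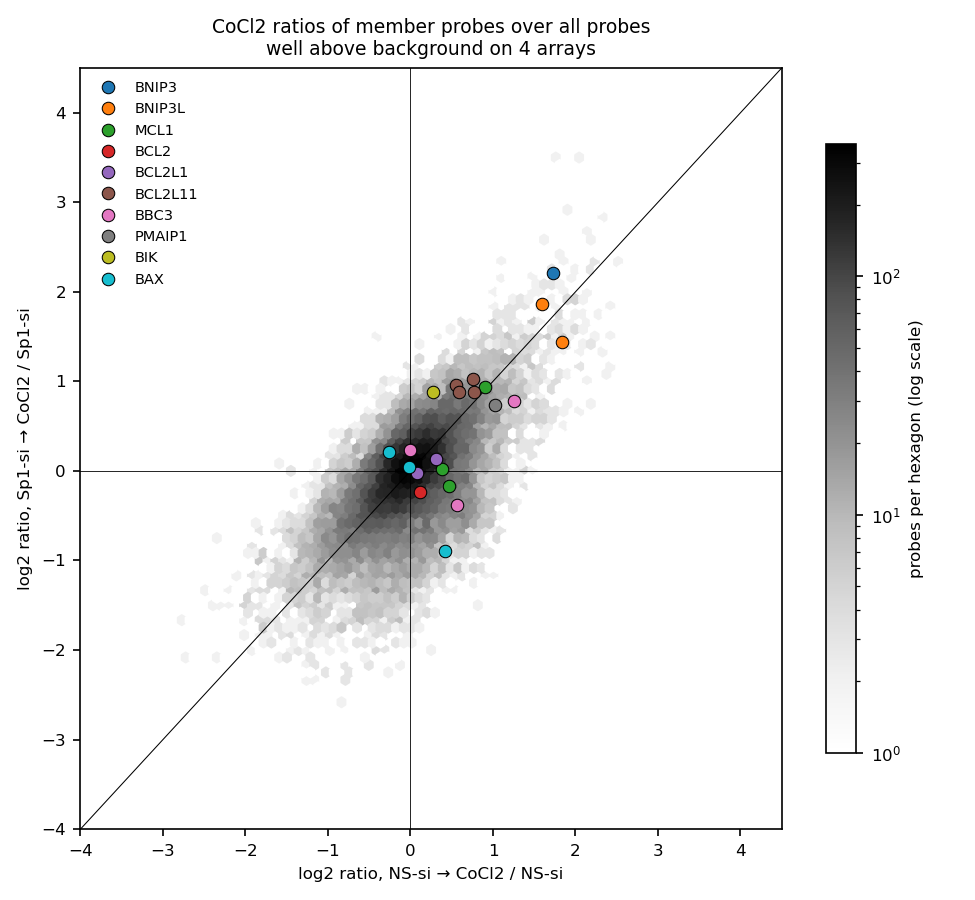
CoCl2 log2 ratios in NS-si cells (horizontal axis) and Sp1-si cells (vertical axis), with all 30234 probes well above background on the 4 arrays as grey hexagons and the member probes as coloured points. The diagonal is equal ratios; BNIP3 (1.72 and 2.21) and the BNIP3L probes lie apart at the upper right, and the BAX probe A_23_P346309 (0.42 and -0.89) lies lowest among the members.

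Sp1 knockdown without CoCl2 raised 2 of 21 member probes past 2-fold, both of BCL2L1 (9.52%, beside 5.03% of all probes). It lowered 1 of 21, that of BIK (4.76%, beside 5.36% of all probes). A single probe makes up 4.76% of the 21. The median ratio was 0.36 over the member probes, 0.18 over the members each by its brightest probe and -0.02 over all probes. Of 21 ratios, 16 lay beyond 2 spot SDs, beside 61.0% of all probes. Among the guardians BCL2L1 and BCL2 were higher and MCL1 was higher by 2 of 3 probes, and among the BH3-only members PMAIP1 and BIK were lower, BCL2L11 was higher by more than 2 spot SDs with 2 of its 4 probes and BBC3 with 2 of its 3, by the ratios given above.

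With CoCl2, the ratio of Sp1-si to NS-si cells passed 2-fold upwards for 1 of 21 member probes, BCL2L11 A_24_P122921 (4.76%, beside 6.06% of all probes). It passed 2-fold downwards for 1 of 21, BAX A_23_P346309 (4.76%, beside 9.21% of all probes). The median ratio was 0.14 over the member probes, -0.075 over the members each by its brightest probe and -0.06 over all probes. Of 21 ratios, 19 lay beyond 2 spot SDs, beside 71.1% of all probes. With scaling by the median the shares of all probes were 7.73% upwards and 7.42% downwards, and without scaling 14.0% and 4.18%. Without scaling the median of all probes was 0.335 and the ratio of BNIP3 0.78.

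Whether Sp1 knockdown changed the answer to CoCl2 was read from the difference between the CoCl2 ratios, Sp1-si minus NS-si cells. No member probe reached 1 upwards, beside 1.04% of all probes. The BAX probe A_23_P346309 alone, 1 of 21 (4.76%), lay at or below -1, beside 4.9% of all probes. The median difference was 0.03 over the member probes, -0.2 over the members each by its brightest probe and -0.02 over all probes. Of 21 differences, 13 exceeded 2 spot SDs, as did 46.1% of all probes. In 4 of 21 member probes, beside 7.27% of all, the CoCl2 ratios had opposite signs in NS-si and Sp1-si cells, each beyond 2 spot SDs. The shares of all probes were 1.52% and 3.83% with scaling by the median, 1.57% and 3.93% with quantile normalization, and 6.43% and 1.18% without scaling.

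The genes with a pattern over the 4 arrays most like a member were sought among 14285 genes, by the root mean square difference of the centred log2 profiles. This was done for the 6 members whose brightest probe spanned at least 2-fold over the arrays. For BNIP3 they were BHLHE40 (0.06), HSPA1A (0.08) and RNF217 (0.11), and 14 genes lay within 0.2. For BNIP3L they were P4HA2 (0.07), FAM13A-AS1 (0.09) and DEDD2 (0.09), with 43 genes within 0.2. BCL2L1 was matched most closely by TSEN34 (0.009), PHKA2 (0.027) and SQOR (0.028), and 551 genes lay within 0.2, so its pattern was a common one. For BCL2L11 the nearest were GATAD2B, ITPKA and FASN, for PMAIP1 USP12, PRKAG2 and TFCP2L1, and for BIK EPB41L2, GPI and MACC1, with 149, 218 and 147 genes within 0.2. The profiles rest on 4 values each.

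The rest of the BCL2 family gave 15 genes well above background of 18 listed. In this and the following lists each gene was counted by its brightest probe. With CoCl2 none of the 15 was raised past 2-fold, and BCL2L15 was lowered, in NS-si (-1.13) and Sp1-si cells (-1.75). After Sp1 knockdown BMF, a BH3-only gene, was raised both without CoCl2 (2.07) and with it (2.36), its signals being 106 and 90.2 with NS-si and 447 and 463 with Sp1-si. BCL2L15 was raised (1.86 and 1.24) and BCL2L14 lowered (-1.38 and -1.98), the latter from dim signals of 36.4 and 43.3. By probes other than the brightest, BCL2L13 (1.02) and BCLAF1 (-1.05) passed 2-fold with CoCl2 in Sp1-si cells, and BCL2L13 (-1.14) after knockdown under CoCl2. The median ratios of these 15 genes were 0.15 and 0.07 for CoCl2 in NS-si and Sp1-si cells and 0.05 and 0.07 for the knockdown without and with CoCl2.

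Of 16 genes that act after cytochrome c leaves the mitochondria, 1 was raised by CoCl2 with NS-si, BIRC3 of the inhibitor of apoptosis family (1.41, against 0.42 with Sp1-si), and 1 with Sp1-si, the caspase activator APAF1 (1.03, against 0.79 with NS-si). Sp1 knockdown lowered BIRC5, the survivin gene, from 10513 to 2064 without CoCl2 (-2.35) and from 12503 to 1866 with it (-2.74). HTRA2, an antagonist of caspase inhibitors, was raised without CoCl2 (1.15). Under CoCl2, ENDOG (1.01) was higher and BIRC3 (-1.52) and AIFM1 (-1.16) were lower. Median ratios lay between -0.11 and 0.07 in the 4 comparisons.

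Among 20 genes of mitophagy and the autophagosome, which act with BNIP3 and BNIP3L, CoCl2 raised ULK1, the kinase that starts autophagy (1.45), and GABARAPL1, a partner of the mitophagy receptors on the autophagosome (1.06), in NS-si cells, and none past 2-fold in Sp1-si cells. MAP1LC3B, the LC3B gene of the autophagosome, lay at 0.62 and 0.81 with CoCl2 in NS-si and Sp1-si cells by its brightest probe, but at 1.24 and 1.83 by the second and 1.07 and 1.78 by the third. ULK1 read 4658 (NS-si), 17504 (Sp1-si), 12745 (NS-si → CoCl2) and 22411 (Sp1-si → CoCl2), and its difference between CoCl2 ratios was -1.10, or -0.81 by its other probe. Sp1 knockdown without CoCl2 raised ULK1 (1.91), WIPI1 (1.11) and GABARAPL1 (1.05) and lowered FUNDC1, another mitophagy receptor of hypoxia (-1.84). With CoCl2, GABARAP (1.22) was raised and FUNDC1 (-1.36) lowered. The probes of ATG5 disagreed, with -0.24 and 1.03 for knockdown without CoCl2. The median ratio over the 20 genes was 0.31 for CoCl2 with NS-si and 0.23 with Sp1-si.

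Of 12 transcription factors known to act on members, CoCl2 raised FOXO3, a regulator of BCL2L11 and BNIP3, with NS-si (1.40, and 0.99 with Sp1-si, against 1.49 and 1.11 by its other probe) and lowered FOXO1 (-1.32 and -1.58). Sp1 knockdown raised SP3 by 1 probe (1.22, against 0.18 by the other), and E2F1 was lower with CoCl2 (-1.02). Of 8 genes that govern turnover of the MCL1, BIM and NOXA proteins, none passed 2-fold with CoCl2, although 1 of the other HUWE1 probes lay at -1.14 in Sp1-si cells, and Sp1 knockdown raised MAPK3, the ERK1 kinase gene (1.77 and 2.35), and BTRC (1.12 and 1.47, against 0.37 and 0.65 by its other probe). Of 11 other HIF target genes well above background, 9 were raised by CoCl2 with NS-si and 10 with Sp1-si, with median ratios of 2.15 and 2.58 beside 1.72 and 2.21 for BNIP3. The largest in Sp1-si cells were ANKRD37 (2.40 and 3.63), ADM (2.77 and 3.58), PDK1 (1.81 and 2.89), VEGFA (2.34 and 2.86), EGLN3 (2.15 and 2.71) and KDM3A (2.15 and 2.58), while with NS-si NDRG1 (2.24 and 2.45, against 2.69 and 3.17 by its other probe) stood above PDK1, EGLN3 and KDM3A. The difference between the CoCl2 ratios had a median of 0.52 over these 11 genes and was 0.49 for BNIP3. Over the 11 genes it ran from -0.92 to 1.23, so they did not all go the same way. Without CoCl2 their median ratio of Sp1-si to NS-si cells was -0.53 and that of BNIP3 -0.11.

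**Figure D5:**
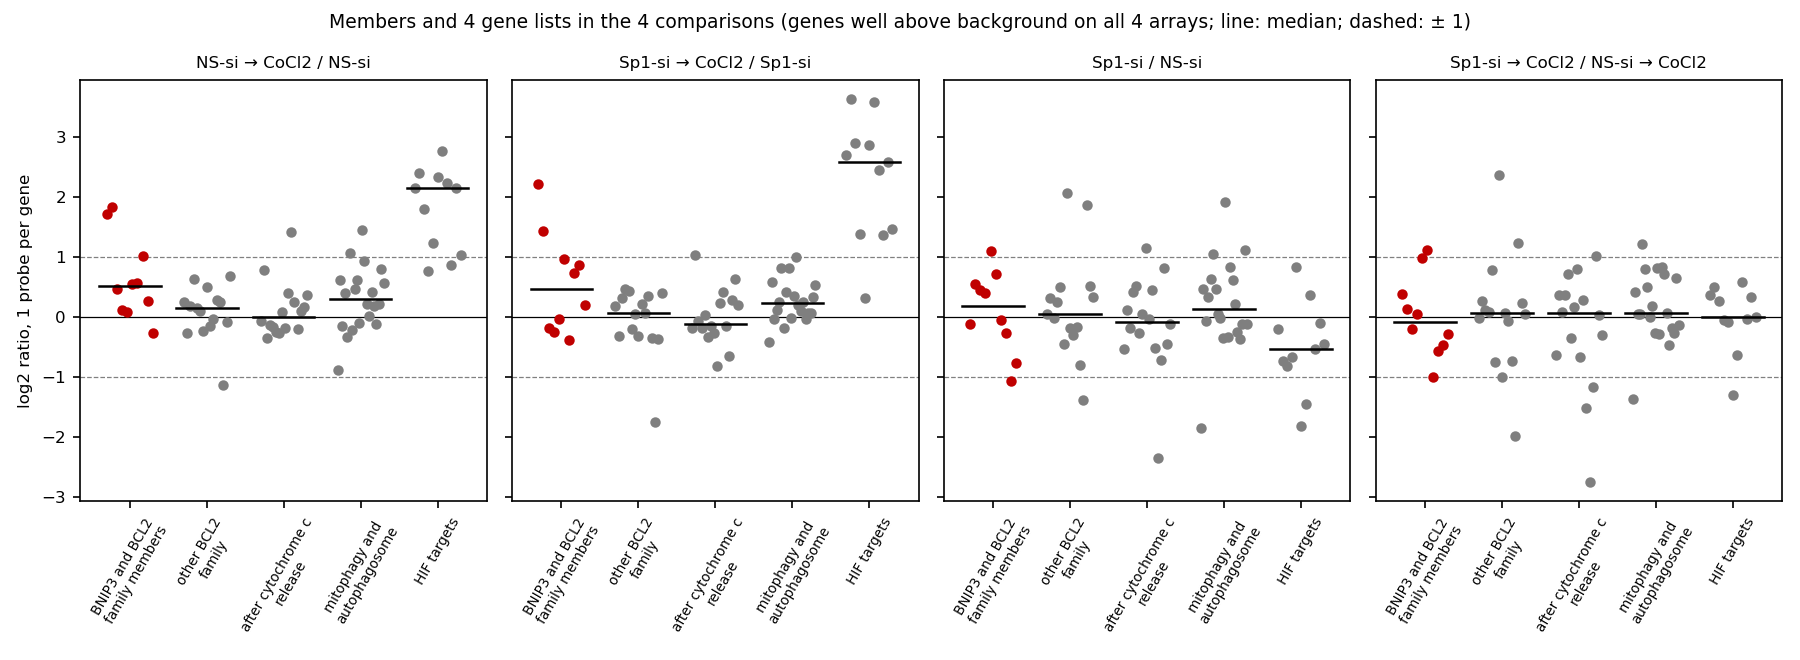
Log2 ratios in the 4 comparisons for the 10 members (red) and the genes of 4 lists (grey) with signal well above background everywhere, 1 probe per gene. Lines are medians and dashed lines mark 2-fold; the HIF targets have medians of 2.15 and 2.58 with CoCl2, and BNIP3 and BNIP3L have the highest CoCl2 ratios of the members.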

How the data were processed

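RNA of OVSAYO cells was read on 4 single-dye arrays, 1 for each siRNA with and without CoCl2. Intensities were deposited by the authors as Agilent Feature Extraction 10.5.1.1 wrote them, after background subtraction and detrending per the file headers and with no scaling between arrays. Spots called outliers were left out, log2 intensities were centred on the 75th percentile of each array, and spots of a probe were averaged. A probe counted as well above background if 50% or more of its remaining spots carried that call. Of 29877 spots with a RefSeq accession, 28463 matched a symbol. Probes with 1 spot took the median SD of the 50 probes with 10 spots of nearest signal. The members, the gene lists and the markers were chosen with earlier results of these data known. Named besides all members are list genes past 2-fold in any comparison, at most 6 per list, and the 3 genes nearest in profile to each member that spanned 2-fold. BCL2L13, BCLAF1, MAP1LC3B, ATG5, HUWE1 and NDRG1 were named after their values were seen, because their probes differed. The lists were other BCL2 family genes, genes acting after cytochrome c release, mitophagy genes, transcription factors, genes of protein turnover and HIF targets, and 2 of the listed genes are not reported here. Upstream sequences are from RefSeq (GRCh38.p14), the arrays being designed on hg18. Counting was tested on simulated data. The alternatives were other scalings, the authors' value table, which is the processed intensity times 1 constant per array, normexp correction (limma 3.58.1), other filters and another threshold. Python 3.11.15 with numpy 2.4.6 and pandas 2.3.3 and R 4.3.3 were used.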

Additional observations from a re-analysis of the deposited data

Results flagged for a closer look

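For 4 of 21 member probes, beside 7.27% of all probes, the CoCl2 ratio was positive with one siRNA and negative with the other, each by more than the spread between spots, and with 1 array per condition the difference was not tested. The MCL1 probe A_24_P336754 was higher with CoCl2 in the presence of Sp1 and lower after its knockdown, a difference of -0.65 on the log2 scale, although without scaling of the arrays the second of these ratios was 0.05. The BBC3 probe A_23_P90189 behaved likewise, with a difference of -0.94 (-0.49 without scaling), and so did the BAX probe A_23_P346309, with -1.31 (-0.86). The BAX probe A_23_P208706 went the other way, with 0.47 (0.92). For each of these 3 genes at least 1 other probe did not show the reversal.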

How the results depend on the processing

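None of the 15 member ratios past 2-fold changed sign in 7 other ways of processing, while 22 of the others did so in at least 1. Leaving out the scaling moves a ratio by at most 0.453, so those past 2-fold could not change sign by it. The counts of member probes past 2-fold moved as follows, in the order of the report. Without scaling, CoCl2 raised 10 probes in Sp1-si cells (beside 6.1% of all probes). Sp1 knockdown then raised 1 without (4.41%) and 7 with CoCl2 (14.0%). The difference between the CoCl2 ratios then reached 1 for 1 probe (6.43%) and -1 for 0 (1.18%). With scaling by the median or by the percentile of probes well above background everywhere, with quantile normalization and with the authors' value table, knockdown under CoCl2 raised 2 probes. The shares of all probes were 6.55% to 7.73% in these settings. With normexp (offset 50) on median signals, chosen after seeing the data since the planned version on mean signals was not run, knockdown without CoCl2 raised 0 (2.75%). At a threshold of 0.58, CoCl2 raised 9 of 21 probes in NS-si cells (beside 11.9% of all probes) and raised 11 (10.4%) and lowered 1 (14.6%) in Sp1-si cells. Knockdown then raised 4 (12.4%) and lowered 3 (13.2%) without CoCl2 and raised 7 (14.6%) and lowered 2 (21.0%) with it, and the difference passed the threshold upwards for 1 (5.55%) and downwards for 3 (12.8%). Counted as genes by the brightest probe, the counts raised by CoCl2 were 3 and 2, knockdown without CoCl2 raised 1, with CoCl2 it lowered 0, and the difference reached -1 for 0. By the mean over probes these were 3, 2, 1, 0 and 0, and knockdown with CoCl2 raised 0. Fewer units are counted there by construction, and the cause of the other shifts was not tested. Keeping outlier spots left each count within 1.5 times, and only 1 member spot had been left out. Changing the filter on dim probes could not alter a count, since every member probe was well above background on all 4 arrays. Dim probes are the least certain, the median SD of a CoCl2 ratio between spots being 0.279 for the dimmest and 0.065 for the brightest probes, by quartile of signal. No paired analysis was possible because each group holds 1 array.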
